A study of Bos taurus with 24 samples.

Results

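Mitochondrial ribosomal proteins (MRPs) are the protein subunits of the mitoribosome, the ribosome inside mitochondria. They were taken here as all array features whose only gene symbol in the platform annotation was MRPL (large subunit) or MRPS (small subunit) followed by a digit. This gave 84 of 17418 features and 68 of the 9425 genes with a single symbol, 42 of them MRPL and 26 MRPS. Of the 68 genes, 66 were measured on enough arrays to be tested, 41 MRPL and 25 MRPS. MRPL20, with values on 15 arrays, and MRPS34, with values on 18, were left out by the minimum of 20 arrays.

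The RNA came from the largest ovarian follicle, 8 to 12 mm across, of each of 16 heifers. Each of 24 dual-dye arrays compared a pair of follicles, and every follicle was on 3 arrays with both dyes used. Follicles carry only an identifier in the labels, with no treatment, stage, health or dominance status and no age or breed, so the comparison is between follicles. All values are log2 levels set against the mean over all 16 follicles. The labels make Cy5 over Cy3 the likely direction of the deposited ratios without stating it, and in the opposite case each level would change its sign. Each animal gave 1 follicle, so standard errors (SE) and p-values measure array error and hold no spread between animals within a condition.

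Mitoribosomes are built in the mitochondrial matrix from ribosomal RNA encoded by mitochondrial DNA and proteins that are all encoded in the nucleus, made on cytosolic ribosomes and imported. They translate the few respiratory-chain subunits that mitochondrial DNA encodes, while the other subunits of the chain are nuclear. Many MRPs are descendants of bacterial ribosomal proteins, and others have no bacterial counterpart and are specific to mitochondria. In the follicle, mitochondria also house the side-chain cleavage of cholesterol, the first step of steroid synthesis. A ratio of 2 dyes gives no absolute level, so whether a marker of a cell type is absent cannot be read from these arrays. In whole follicles, fewer cells of a type and less RNA per cell cannot be told apart.

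Follicle J980 stood apart from the rest. It had the lowest level in 15.5% of all 9026 genes tested, and 233 genes (2.58%) passed the limma test of a single follicle against the mean of the 16 as lower there, more than in any other follicle. Counts of genes past the test between follicles are therefore given with and without J980 for the MRP genes, the respiratory chain and the cytosolic ribosome. Precision is limited by the 3 arrays per follicle, with a median SE of 0.132 for the level of a gene.

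Many MRP genes differed between follicles, and most of those were high in follicle 861, low in J980, or both. By the limma moderated F test of all follicle effects, with Benjamini-Hochberg adjustment over all genes, 19 of 66 MRP genes (28.8%) had an adjusted p of at most 0.05. The share of all genes was 1061 of 9026 (11.8%). An unadjusted p under 0.05 was found for 29 of the 66 MRP genes and for 26.5% of all genes. Among the 19, 12 were lowest in J980 and 11 were highest in 861. Without J980 and its arrays, 8 of 66 MRP genes (12.1%) passed, against 7.47% of all genes, and 7 of these 8 had also passed with J980. Without a dye term the count was 8 of 66 (12.1%), against 6.74% of all genes. By subunit, as named in the gene symbol, 13 of 41 MRPL genes (31.7%) and 6 of 25 MRPS genes (24%) passed. Without J980 it was 7 of 41 (17.1%) and 1 of 25 (4%). The difference between the subunits was not tested.

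**Figure D1:**
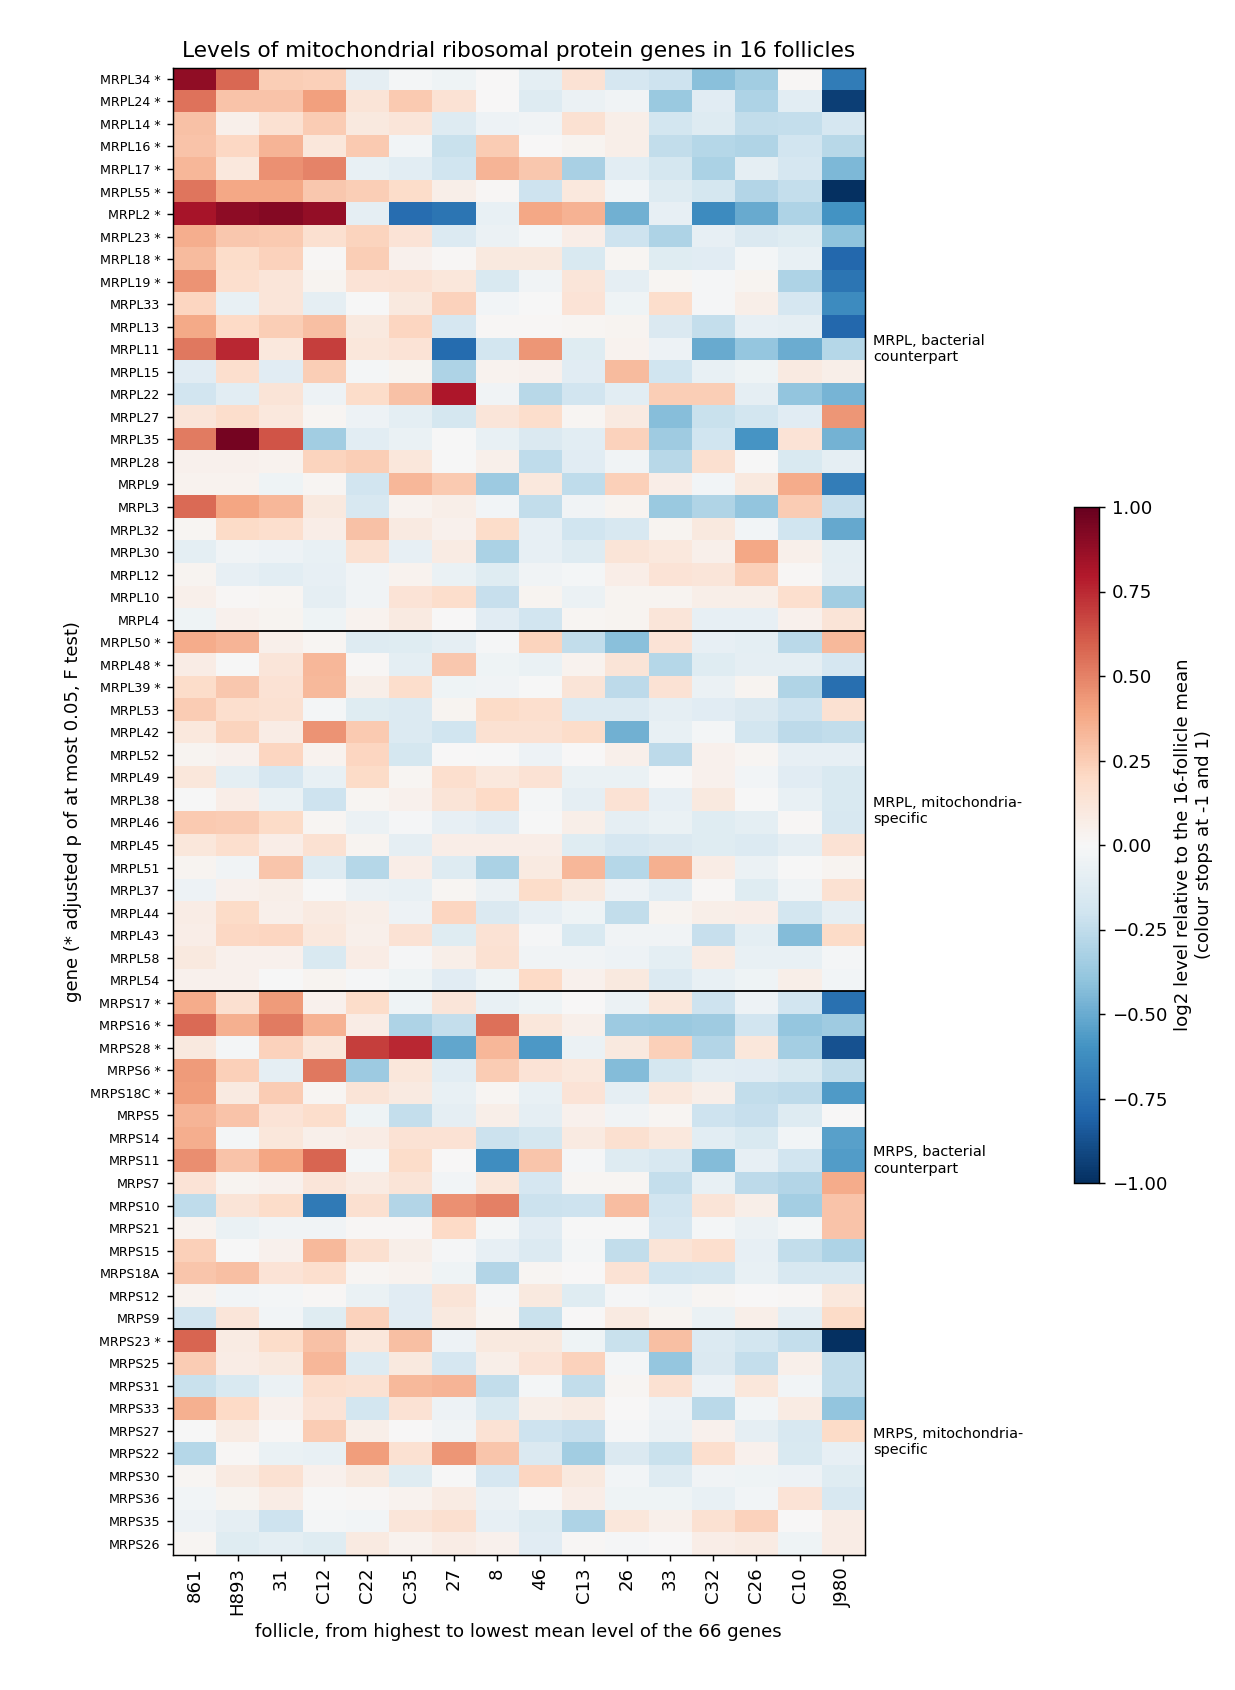
Log2 level of each of the 66 tested MRP genes (rows, grouped by subunit and by the presence of a bacterial counterpart, smallest p first in each group) in the 16 follicles (columns, ordered by the mean of the 66 genes). Asterisks mark the 19 genes past the F test, and the left columns (861, H893, 31) are mostly red while the J980 column at the right holds the deepest blue.

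The mean over the 66 genes set the order of the follicles. It was 0.19 ± 0.042 (SE, 3 arrays) in 861, 0.15 ± 0.043 in H893, 0.14 ± 0.041 in 31 and 0.11 ± 0.042 in C12. It lay between 0.053 in C22 and -0.089 in C26 for 10 others, then at -0.12 ± 0.038 in C10 and -0.25 ± 0.042 in J980. Neighbours in this order differed by less than their SE, apart from C12 and C22 and from C10 and J980. J980 thus had the lowest mean by a clear step, while the top 4 follicles ran into one another. These means are given with no test, since the genes are not replicates of a follicle. The number of MRP genes below 0 was 50 of 66 (75.8%) in C10, 49 in C26 and 48 in J980, and 13 in 861, 15 in H893 and 15 in 31. A lower mean in C10 and C26 was therefore spread over as many genes as in J980, but by smaller steps.

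The large-subunit protein genes MRPL34 and MRPL24 had the smallest p. MRPL34, the counterpart of a short, basic bacterial protein, had its highest level in 861 at 0.89 ± 0.102, a median of -0.032 and its lowest level in J980 at -0.70 ± 0.102 (limma F test, adjusted p = 0.00146). Its level was 0.57 in H893 and between 0.25 and -0.42 in the other 13, so 3 follicles stood off from the rest. MRPL24, whose bacterial counterpart starts the assembly of the large subunit, had 0.54 ± 0.130 in 861, a median of -0.017 and -0.94 ± 0.130 in J980 (limma, adjusted p = 0.00342). After J980 the next lowest follicle was 33, at -0.37. MRPL55, a small large-subunit protein, showed the same 2 extremes, 0.54 ± 0.192 in 861 and -1.10 ± 0.192 in J980, with a median of 0.034 (limma, adjusted p = 0.0201). The call of MRPL55 was lost without moderation of the variances. MRPL24 and MRPL34 kept theirs under every setting tried.

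Other large-subunit genes differed by less or in another order. MRPL14, whose protein lies at the interface between the subunits, ranged only from 0.29 ± 0.0785 in 861 to -0.25 ± 0.0706 in C26, with a median of 0.0095 (limma, adjusted p = 0.00952). MRPL16, a protein near the tRNA-binding sites, was highest in 31 at 0.34 ± 0.101 and lowest in C26 at -0.30 ± 0.093, with a median of 0.012 (limma, adjusted p = 0.0164). In these genes J980 was low, at -0.17 and -0.28, but not the lowest. MRPL17, the counterpart of a bacterial protein near the exit tunnel, had 0.50 ± 0.145 in C12, a median of -0.094 and -0.45 ± 0.145 in J980 (limma, adjusted p = 0.0176). MRPL48, which is specific to mitochondria, ranged from 0.33 ± 0.10 in C12 to -0.28 ± 0.090 in 33, around a median of -0.025 (limma, adjusted p = 0.0256). The calls of MRPL14, MRPL16, MRPL17 and MRPL48 were each lost without a dye term. Those of MRPL16 and MRPL48 were also lost without J980, and that of MRPL17 without moderation of the variances.

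MRPL50, a protein of the large subunit with no bacterial counterpart, ran against the others in J980. Its highest level was 0.37 ± 0.0967 in 861 and its lowest -0.42 ± 0.0870 in follicle 26, with a median of -0.049 (limma, adjusted p = 0.00869). In J980 it was 0.33 ± 0.097, close to its top. The log2 ratios of J980 over its partners were 0.45 against follicle 8, 0.42 against 27 and 0.68 against 26, all positive. Its correlation over the 16 follicles with the mean of the other MRP genes was r = 0.220, and 0.601 over the 15 without J980. Its call was lost without J980 and its arrays (limma, adjusted p = 0.0571), but its SD hardly changed, from 0.231 to 0.224.

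MRPL2 had the largest spread of all 66 genes, an SD of 0.624. Its protein is the counterpart of a bacterial one at the peptidyl transferase centre. It was high in 4 follicles, at 0.92 ± 0.191 in 31, 0.89 in H893, 0.88 in C12 and 0.83 in 861. It was lowest in C35 at -0.76 ± 0.191, with -0.73 in 27, -0.63 in C32 and -0.60 in J980. The remaining follicles lay between 0.39 and -0.50, around an overall median of -0.085 (limma, adjusted p = 0.0294). The gene has a single feature on the array, and it lost its call in 9 of the 24 refits with an array removed. The call was also lost without J980 and without moderation of the variances.

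The other 4 large-subunit genes past the test were MRPL23, MRPL39, MRPL18 and MRPL19. All were lowest in J980, at -0.40 for MRPL23, -0.75 for MRPL39, -0.78 for MRPL18 and -0.73 for MRPL19. Their highest levels lay between 0.32 and 0.45, in 861 for MRPL23, MRPL18 and MRPL19 and in C12 for MRPL39. Their adjusted p lay between 0.0336 and 0.048 (limma), close to the threshold. Removing an array ended the call of MRPL23 in 16, MRPL18 in 19, and MRPL19 and MRPL39 in 20 of the 24 refits. The calls of MRPL18, MRPL19 and MRPL39 were also lost without J980, without a dye term and without moderation of the variances. MRPL23 kept its call without J980, but lost it without a dye term and without moderation. MRPL39 is measured by 2 features, which had r = 0.906 over the follicles. Tested singly, 1 passed (limma, adjusted p = 0.0102) and the other did not (limma, adjusted p = 0.137). Just outside the threshold were MRPL53, with an adjusted p of 0.0522 (limma), and MRPL33 and MRPL13, with 0.0744 and 0.0752.

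In the small subunit, MRPS23 gave the widest gap. This mitochondria-specific protein had 0.58 ± 0.139 in 861, a median of 0.089 and -1.17 ± 0.139 in J980, where the next lowest follicle, C10, was at -0.24 (limma, adjusted p = 0.00342). It kept its call under every setting tried, with MRPL24 and MRPL34. MRPS17, the counterpart of a bacterial protein that binds ribosomal RNA early in assembly, had 0.43 ± 0.128 in 31, a median of -0.020 and -0.75 ± 0.132 in J980 (limma, adjusted p = 0.0168). Its J980 level was also far below the next one, -0.21 in C32.

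MRPS16 and MRPS28 were ordered in another way. MRPS16, whose loss in humans causes a severe respiratory-chain disease, had 0.56 ± 0.166 in 861, 0.55 in follicle 8 and 0.52 in 31, a median of -0.069, and -0.39 ± 0.149 in C10 (limma, adjusted p = 0.0176). Its low end was shared by C10, 33, 26, J980 and C32, all between -0.36 and -0.39. MRPS28, the counterpart of a bacterial small-subunit protein, was highest in C35 at 0.75 ± 0.211 and in C22 at 0.69, had a median of 0.098, and was lowest in J980 at -0.87 ± 0.188 (limma, adjusted p = 0.022). Follicles 46 and 27 were low as well, at -0.57 and -0.52. MRPS16, MRPS17 and MRPS28 each lost their call without J980 and without moderation of the variances, and MRPS16 also without a dye term. The SD of MRPS16 was nonetheless 0.359 without J980, against 0.367 with it. The 2 remaining small-subunit genes past the test were MRPS6, from 0.53 in C12 to -0.43 in 26, and MRPS18C, from 0.42 in 861 to -0.56 in J980, with adjusted p of 0.0335 and 0.0443 (limma). MRPS6 lost its call in 13 and MRPS18C in 18 of the 24 refits with an array removed. Both also lost it without J980, without a dye term and without moderation of the variances.

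Some members hardly varied. MRPS12, a protein of the decoding centre, had an SD of 0.0707 over the 16 follicles, MRPS36 of 0.0710 and MRPS26 of 0.0765, against a median of 0.196 over the 66 genes. MRPS36 has since been described as a subunit of the alpha-ketoglutarate dehydrogenase complex and not of the mitoribosome. The proteins of MRPS30 and MRPS18A, named for the small subunit, lie in the large one, and neither gene passed the test on the average of its features. Taken alone, 1 of the 2 features of MRPS18A passed (limma, adjusted p = 0.0455). Where a gene had several features, these often disagreed. Of 13 such genes, MRPL15 had r = 0.217 between its features, MRPL38 a median of -0.129, MRPS9 -0.132, MRPL37 -0.167, MRPS5 -0.223, MRPS18A -0.313, MRPL4 -0.314 and MRPL10 -0.551. None of these 8 genes passed the F test on the average of their features. Tested one by one, 18 of 80 MRP features passed, against 12.2% of all features.

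Genes with a bacterial counterpart had a larger median SD of fitted levels than mitochondria-specific ones in both subunits, as named in the gene symbol. These SDs include array error, and the median array error of the genes was also larger in those with a counterpart. The F test called 11.8% of all genes. Of 25 MRPL genes with a counterpart, 10 (40%) passed, and their median SD was 0.25. Of 16 mitochondria-specific MRPL genes, 3 (18.8%) passed, with a median SD of 0.129. In the small subunit 5 of 15 genes with a counterpart (33.3%) and 1 of 10 mitochondria-specific genes (10%) passed, with median SDs of 0.207 and 0.165. Without J980, 7 of 25 and 0 of 16 passed in the large subunit, and 0 of 15 and 1 of 10 in the small subunit. The share of all genes was then 7.47%. The mean of all genes with a counterpart minus that of the mitochondria-specific ones was 0.16 ± 0.048 (SE) in 861 and -0.22 ± 0.048 in J980. Only MRPL genes showed the gap in J980, with means of -0.41 for those with a counterpart and -0.054 for the mitochondria-specific ones. For MRPS genes these means were -0.20 and -0.21. The mitochondria-specific MRPL genes had their lowest mean in C10, at -0.13. The difference between the classes was not tested.

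**Figure D2:**
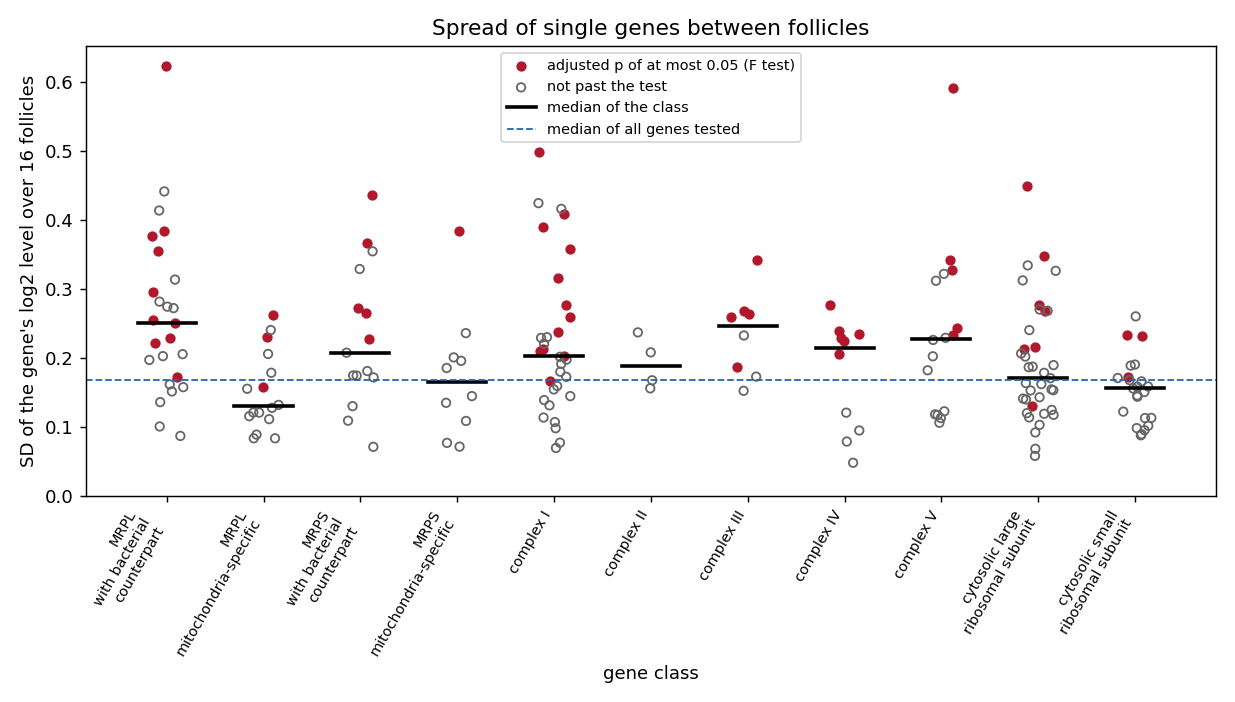
SD of each gene's log2 level over the 16 follicles (y axis) for the MRP classes, the 5 respiratory complexes and the cytosolic ribosomal subunits (x axis), with filled points for genes past the F test, a bar at each class median and a dashed line at the median of all genes, 0.168. MRPL genes with a bacterial counterpart have a median of 0.25 and the mitochondria-specific ones 0.129, and MRPL2 is the top point of the first class.

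Tested follicle by follicle against the mean of the 16, MRP genes stood out in J980 alone on the low side. With p-values adjusted over all genes and follicles together, 7 of 66 were lower in J980, against 2.58% of all genes. They were MRPS23, MRPL24, MRPL34, MRPL39, MRPL55, MRPS17 and MRPL18, with adjusted p from 0.00351 to 0.0461 (limma). On the high side MRPL34 passed in 861 (limma, adjusted p = 0.00305), where 0.421% of all genes did, and in H893 (limma, adjusted p = 0.0369), where 0.299% did. No MRP gene passed in the other 13 follicles. Counted over all follicles, low-side calls fell to 0 when any of 3 arrays was left out, those of C10 over 26, C26 over 33 and 26 over J980. Without 1 J980 array (J980 over 8) there were 13 low-side calls over all follicles.

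The 3 arrays that hold J980 showed low values one by one. For MRPS23 the log2 ratio of J980 over its partner was -0.97 against follicle 8, -1.37 against 27 and -0.99 against 26. For MRPL24 these were -0.88, -1.34 and -0.86 against the same 3 follicles, and for MRPL55 they were -0.86, -1.64 and -0.86. All 3 ratios were negative for 24 of 65 MRP genes (36.9%) with a value on each array, against 40.3% of respiratory-chain genes, 20% of cytosolic ribosomal genes and 18.8% of all genes. J980 had the lowest level in 23 of 66 MRP genes (34.8%), against 15.5% of all genes, and 861 the highest in 18 (27.3%), against 6.85%. Not all members went this way, and MRPL50 was close to its top level in J980. The genes MRPL27, MRPS7, MRPS21 and MRPL4 had their highest level in J980, at 0.44, 0.37, 0.29 and 0.13, without passing the F test.

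The MRP mean had nearly the same order of follicles as the mean of 70 respiratory-chain genes, and little in common with that of 60 cytosolic ribosomal genes. Over the 16 follicles, r with the respiratory chain was 0.970 and Spearman's rho was 0.962. Without J980 r was 0.954, and without both J980 and 861, the follicles farthest from the median, it was 0.938. With the cytosolic ribosomal mean r was 0.121 and rho -0.0588, and r was -0.258 without J980 and -0.167 without J980 and 861. These values describe the 16 levels. The lists share arrays and their errors: the residuals of the fit over arrays had r = 0.881 between the MRP and respiratory-chain means and 0.831 between the MRP and cytosolic ribosomal means. Array error was thus shared with both lists. The SD of the MRP mean over follicles was 0.11, and the array-error SD of its log ratio was 0.056.

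**Figure D3:**
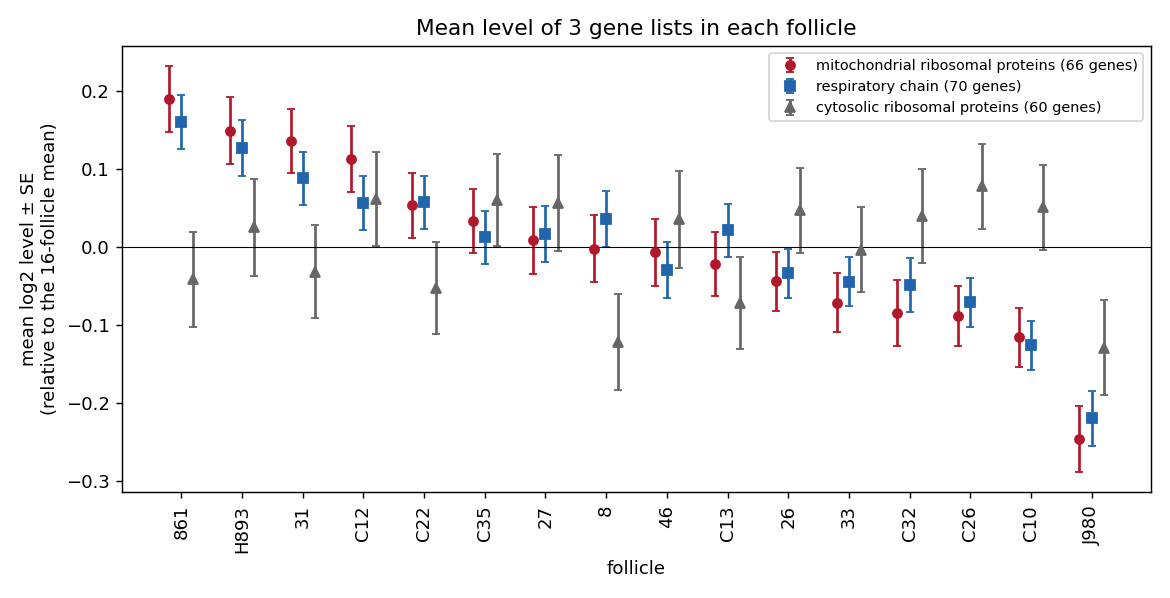
Mean log2 level, with its SE from array error, of the 66 MRP genes, the 70 respiratory-chain genes and the 60 cytosolic ribosomal genes (y axis) in each follicle (x axis, ordered by the MRP mean). MRP and respiratory-chain points descend together from 0.19 and 0.16 in 861 to -0.25 and -0.22 in J980, while the cytosolic ribosomal points have no such order.

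The MRP mean minus the respiratory-chain mean lay between -0.044 ± 0.020 in C13 and 0.057 ± 0.020 in C12. The MRP mean minus the cytosolic ribosomal mean ranged more widely, from 0.23 ± 0.035 in 861 and 0.17 ± 0.034 in 31 to -0.17 ± 0.031 in both C10 and C26. In J980 it was -0.12 ± 0.035, where cytosolic ribosomal genes also had their lowest mean, -0.13 ± 0.061. Of the 66 MRP genes, 32 (48.5%) had r of at least 0.5 with the mean of the other MRP genes, and 34 of 70 respiratory-chain genes (48.6%) had that with the MRP mean. For cytosolic ribosomal genes it was 7 of 60 (11.7%), below the 13.5% of all genes. The F test called 28 of 70 respiratory-chain genes (40%) and 10 of 60 cytosolic ribosomal genes (16.7%), against 11.8% of all genes. Without J980 it called 16 of 70 (22.9%) and 4 of 60 (6.67%), against 7.47% of all genes.

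**Figure D4:**
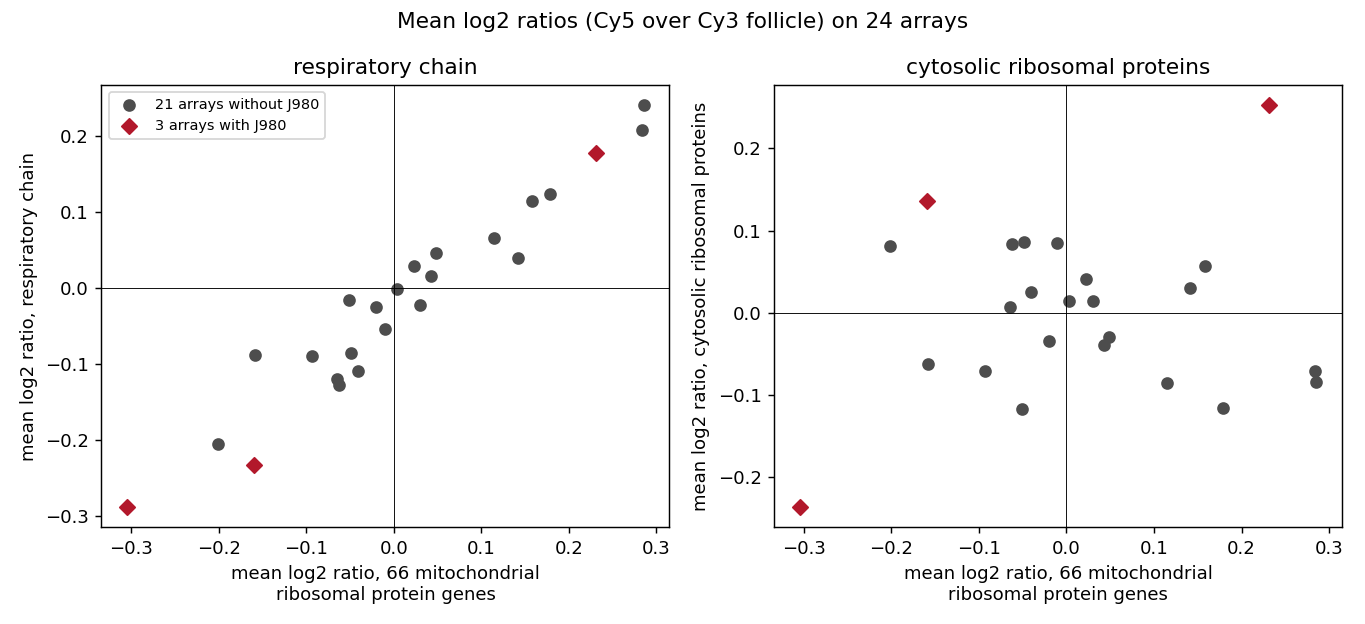
Mean log2 ratio of the Cy5 over the Cy3 follicle on each of the 24 arrays, for the 66 MRP genes (x axis) against respiratory-chain genes (left, y axis) and cytosolic ribosomal genes (right, y axis), with diamonds for the 3 arrays that hold J980. The left points lie along a line (r = 0.966), and the right ones scatter (r = 0.118).

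By complex, r with the MRP mean was 0.947 for complex I, 0.835 for complex III, 0.763 for complex IV and 0.934 for complex V, and between 0.739 and 0.942 for these 4 without J980. In complex I 12 of 32 genes passed the F test, against 11.8% of all genes, and 3 of 32 without J980, against 7.47%. The 4 subunits of complex II are all encoded in the nucleus, as are the other chain genes measured here. For complex II r was -0.282, with 0.117 without J980 and 0.373 without both J980 and 861. Its genes were split, with r of -0.669 for SDHA, -0.652 for SDHD, 0.534 for SDHB and 0.156 for SDHC. NDUFC1, a complex I subunit, ranged like many MRP genes from 0.51 ± 0.0947 in 861 to -0.63 ± 0.0947 in J980 (limma, adjusted p = 0.00181), and NDUFB4 had its lowest level in C10 at -0.45 (limma, adjusted p = 0.00457). ATP5MC3, a subunit of the membrane ring of ATP synthase, had r = 0.929, with 0.43 in 31 and -0.55 in J980 (limma, adjusted p = 0.00342). The complex IV genes of smallest p, COX7A2 and COX7C, both passed and were lowest in C10, at -0.47 and -0.45. Other genes had a negative r: UQCRH of complex III had r = -0.437 and ATP5F1A of complex V had r = -0.499, and both passed the F test. A feature averaged into ATP5F1A followed IGHG1, an immunoglobulin gene. UQCR11 of complex III had r = 0.678. SDHA, the flavoprotein of complex II, had its top level in J980, 0.53, and its lowest in 861, -0.32, without passing (limma, adjusted p = 0.0866), and SDHB did not pass either, with an adjusted p of 0.124 (limma). Subunits encoded by mitochondrial DNA, the products of the mitoribosome, were not among the named features.

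In the cytosolic ribosome the 4 genes shown, those with the smallest p in each subunit, were split in J980. RPL31 had its highest level there, 0.59 ± 0.0849 (limma, adjusted p = 0.000992), as did RPS29, 0.72 ± 0.105 (limma, adjusted p = 0.0175). RPL37A and RPS13 were lowest in J980, at -0.42 and -0.55, with adjusted p of 0.0091 and 0.0215 (limma). Within the large cytosolic subunit 7 of 37 genes passed and in the small one 3 of 23, against 11.8% of all genes. Without J980 it was 4 of 37 and 0 of 23, against 7.47% of all genes.

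Other mitochondrial lists followed the MRP mean to differing degrees. Their counts past the F test stand beside a share of 11.8% of all genes. The 22 measured genes of protein import and folding had r = 0.892, and 6 passed the F test, led by TOMM6, a subunit of the outer-membrane translocase, at 0.46 in 31 and -0.72 in J980 (limma, adjusted p = 0.000634). The 10 translation factors had r = 0.786, and 0 passed, and the 13 genes of mitochondrial transcription and biogenesis had r = 0.634, and 0 passed. The 12 mitochondrial tRNA synthetases had r = 0.549, and 2 passed, led by NARS2, which charges asparagine tRNA, at 0.59 in H893 and -0.69 in J980 (limma, adjusted p = 0.0074). Of 15 assembly factors 1 passed, the rRNA methyltransferase MRM2, and r was 0.30. Without J980, r was 0.836 for import and folding, 0.687 for translation factors, 0.651 for transcription and biogenesis, 0.455 for tRNA synthetases and 0.399 for assembly factors.

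The lists for the cell cycle and for cell types were set beside the MRP mean in the same way, and 11.8% of all genes passed the F test. The 24 cell cycle genes had r = 0.848, and 0.758 without J980, with a mean of -0.50 ± 0.043 in J980 and 0.37 ± 0.042 in 31, and 13 passed, led by CCNB1. The 12 granulosa markers had r = 0.627, which was 0.364 without J980, and a mean between -0.62 in J980 and 0.29 in follicle 8, and 7 passed, led by FST. They did not move as a block, and only 3 of the 12 had r of at least 0.5 with the MRP mean. In J980 FST was at -2.05 and INHBA at -2.69, while GATM, which also passed, was highest there at 0.71 and had r = -0.648. The 18 leukocyte and erythrocyte markers had r = -0.590, and -0.612 without J980, between -0.32 in 46 and 0.55 in C26, and 8 passed, led by CXCR4. The 7 endothelial markers had r = -0.600, and -0.584 without J980, between -0.25 in 46 and 0.35 in C26, and PECAM1 alone passed. The 11 smooth muscle and stroma markers had r = -0.124, and -0.664 without J980, between -0.37 in J980 and 0.25 in C26, and 4 passed, led by POSTN. The 8 theca markers had r = -0.0611, and -0.381 without J980, and 6 passed, led by TCF21. Of the 2 oocyte markers measured ZP3 passed, and r was -0.573, and -0.679 without J980. The part of cell composition or proliferation in the MRP levels was not tested.

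Outside all lists, the 5 genes past the F test with the highest r to the MRP mean over 16 follicles were PSMB6 (r = 0.947), CIAO2A (0.910), PSMA7 (0.901), SPC24 (0.898) and MFGE8 (0.889). PSMB6 and PSMA7 are subunits of the proteasome core, CIAO2A takes part in cytosolic iron-sulfur protein assembly, SPC24 is a kinetochore protein and MFGE8 a secreted glycoprotein. All 5 were lowest in J980, at -0.99 for PSMB6, -0.60 for CIAO2A, -0.32 for PSMA7, -0.97 for SPC24 and -0.65 for MFGE8. The choice by r favours this, because the MRP mean was itself lowest in J980.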

How the data were processed

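The authors deposited 1 log ratio per feature and array, read here as log2. Its largest size, 6.323, lies beyond 4.816, the limit of base 10 for 16-bit scans, and natural logs cannot be told apart. Arrays were scanned with GenePix Pro 4.0.1.12, per the labels' protocols; the sources used here do not state the background correction or the normalization. Deposited array medians lay between -0.0139 and 0.00639. Each array held 16094 to 17028 values, no intensities were used, and signal over background is unknown. Gene names are those of the platform annotation, and 8 features that list an MRP symbol among several were left out. Of 13605 features with 1 symbol, 13575 matched RefSeq (ARS-UCD2.0) by gene ID and 0 symbols changed.

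Arrays were centred on their medians, features of a gene on at least 20 arrays averaged, and follicle effects fitted with a common dye term (limma 3.58.1, R 4.3.3; 8 residual degrees of freedom). The F test and the test of each follicle against the mean of 16 were adjusted by Benjamini-Hochberg at 0.05, over all genes for the F test and over genes and follicles together for the other. A list mean was fitted as 1 value per array. The code was tested on simulated data. Named were all members past the F test, the 12 of smallest p in full, the 3 of smallest SD, members whose features had r below 0.3, the 2 genes of smallest p per complex or cytosolic subunit, the leading gene of other lists where it passed, and the 5 genes most like the MRP mean; others were named after their values were seen. The members and lists were chosen with earlier results of these data known. Alternatives changed centring, scaling, array minimum, dye term, moderation, feature choice, list score, and the arrays and follicles used. Figures were drawn with matplotlib 3.10.9.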

Additional observations from a re-analysis of the deposited data

How the results depend on the processing

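The 19 MRP genes past the F test became 8 without a dye term, all among the 19, 8 without J980 and its arrays and 8 without moderation, with 7 of the 19 kept in each of these. Leaving out 1 array gave 11 to 22, with 11 or 12 without the array of 33 over C12, 33 over C13, C12 over 46 or 31 over C10. All other settings gave 16 to 19. The 7 low-side calls, all in J980 in the main fit, were counted over all follicles in the other settings. They became 2 with arrays scaled to the same spread, 4 without a dye term and 3 without moderation, and 0 to 13 without 1 array. Without J980 there were 0 low-side calls, but that fit has no J980 level. The 2 calls on the high side became 1 under each of these 4 settings, and 0 to 3 without 1 array. The mean in J980, -0.25, was -0.18 after scaling, -0.17 as a median over members and -0.17 with members scaled to SD 1, and -0.31 to -0.21 without 1 array. The mean in 861, 0.19, was 0.12 as a median, and 0.18 to 0.22 without 1 array. The r with the respiratory chain stayed between 0.920 and 0.984 without 1 array, and r with cytosolic ribosomal genes between -0.14 and 0.38. The causes were not tested. Under every setting tried, 3 genes (MRPL24, MRPL34 and MRPS23) were called, and 6 lost their call in at least 12 of 24 fits without 1 array. Every array compared a pair of follicles, and the fit used this pairing. No further pairing was used, because the replicate numbers only name arrays. Array error over 3 arrays limits each level, the log base and direction are not stated, and signal over background is unknown.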

Other observations

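The mitoribosome has subunits whose genes do not carry an MRP symbol, and 4 of these were measured: CHCHD1, DAP3, AURKAIP1 and PTCD3, named after their values were seen. None passed the F test. CHCHD1 came closest, with 0.70 ± 0.238 (SE) in 861 and -0.62 ± 0.238 in J980 (limma, adjusted p = 0.055). The mean of the 4 was 0.15 ± 0.046 in both 861 and H893 and -0.24 ± 0.046 in J980. Its r with the mean of the 66 MRP genes was 0.846 over the 16 follicles and 0.755 without J980, and the residuals over arrays had r = 0.127, lower than for the respiratory chain.

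Some MRP genes had a negative r with the rest. MRPS26, MRPS35, MRPS21 and MRPL12 had r of -0.469, -0.445, -0.339 and -0.333 with the mean of the other members over 16 follicles, and none of the 4 passed the F test. Without J980 the r of MRPS21 was 0.138, so its sign turned, and those of MRPS26, MRPS35 and MRPL12 were -0.402, -0.449 and -0.594. The 1 feature of MRPS35 had the highest r of any member feature with IGHG1, 0.865.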
